A study of Mus musculus with 3 samples.

Results

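RNA of 10 genes of the extracellular matrix, *Dcn*, *Lum*, *Bgn*, *Fmod*, *Prelp*, *Ogn*, *Vcan*, *Acan*, *Tnc* and *Mgp*, was counted in cells of the larynx. The genes were selected by name for what their products do in the matrix, with earlier results of these data known. Protein was not measured. The cells came from dissociated larynges, so fibroblasts could not be assigned to the lamina propria. The genes are 10 of the 33696 features counted. *Dcn* (decorin), *Lum* (lumican), *Bgn* (biglycan), *Fmod* (fibromodulin), *Prelp* (prolargin) and *Ogn* (osteoglycin) encode small leucine-rich proteins, *Vcan* (versican) and *Acan* (aggrecan) encode large proteoglycans, and *Tnc* (tenascin-C) and *Mgp* (matrix Gla protein) encode matrix modulators without glycosaminoglycan chains.

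Small leucine-rich proteins bind collagen fibrils and set their diameter and spacing, and decorin and biglycan also bind growth factors of the transforming growth factor family. Versican and aggrecan carry chondroitin sulphate chains and bind hyaluronan, by which they hold water, versican in loose connective tissue and aggrecan in cartilage. In the vocal folds this matrix gives the lamina propria the softness that vibration needs, and fibroblasts are known as its main source.

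RNA of single cells was sequenced in 3 libraries, each of cells sorted for tdTomato from a pool of 10 larynges (5 male and 5 female mice) of Lrig1CreERT2/+; ROSA26CAG-LSL-tdTomato/+ genotype, collected 24 h post-recombination (PR). Tamoxifen lets cells that express *Lrig1*, a negative regulator of growth factor receptors and a stem cell marker, switch on the red reporter. The sort was for labelled cells and their progeny, which could not be checked in single cells here. Every mouse carried CreERT2 at 1 *Lrig1* allele. WT and ROSA26CAG-LSL-tdTomato/+ mice served for the sorting gates and gave no library, the ages of the mice were not given in the sources used here, and neither tdTomato nor Cre was among the features. All libraries belong to 1 condition, so comparisons run between kinds of cell from the same pools, and a library counts as 1 replicate. The main fits leave out the pairing by library, and their p-values measure the spread between pools. Fits with the library as a replicate block compare within each library, and their p-values measure the spread of those differences.

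After quality limits and removal of likely doublets, 13222, 7201 and 24119 cells remained in libraries 1, 2 and 3, with a median of 10314 to 14026 unique molecular identifiers (UMIs, each 1 counted RNA molecule) per cell. From 46 to 165 cell barcodes were shared by any pair of libraries, at most 0.913% of the smaller one. Cells were gated on UMIs of marker genes, none of them a member. A fibroblast had a UMI of at least 4 of *Pdgfra*, *Prrx1*, *Col1a1*, *Col1a2*, *Col3a1* and *Col6a3*, with *Pdgfra* or *Prrx1* among them, which held for 1904, 359 and 1740 cells. A basal epithelial cell had at least 3 of 5 epithelial genes with *Trp63* and *Krt5*, which held for 4893, 3751 and 16320 cells. The 5 fibroblast check markers that the gate did not use (*Dpt*, *Mfap5*, *Col5a1*, *Col6a1* and *Twist2*) summed to between 1865 and 2926 counts per 1000000 UMIs (CPM) in fibroblasts and between 0.907 and 17.5 CPM in basal epithelium, so the labels held in each library. Satellite cells (757, 687 and 1099), the stem cells of skeletal muscle, were present in each library as well. Endothelial cells (487, 31 and 2), mural cells (64, 2 and 4) and chondrogenic cells (29, 4 and 6) came mostly from library 1, and a group was summed in a library only with at least 20 cells. In library 3 the removal of likely doublets left 2 of 50 endothelial, 4 of 32 mural and 9 of 47 myeloid cells, so that library gave no sum of these classes.

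Levels below are CPM of the UMIs summed over a group, and they order groups within a gene, not genes. In GRCm39, several members lie in pairs or beside related genes. *Dcn* (chromosome 10, 97315275 to 97358155, plus strand) is followed 42.84 kb downstream by *Lum* (97400990 to 97408577). *Prelp* (chromosome 1, 133837335 to 133857971, minus strand) lies 107 kb from *Fmod* (133964992 to 133976015, plus strand). *Ogn* (chromosome 13, 49761349 to 49780412, plus strand) follows *Omd*, which encodes osteomodulin, at a distance of 15.05 kb. *Vcan* (chromosome 13, 89803431 to 89890814, minus strand) lies beside *Hapln1*, and *Acan* (chromosome 7, 78702964 to 78764847, plus strand) ends 0.003 kb from *Hapln3*, both genes of link proteins that fasten such proteoglycans to hyaluronan. The other members are *Bgn* (chromosome X, 72527208 to 72539541, plus strand), *Tnc* (chromosome 4, 63878014 to 63965443, minus strand) and *Mgp* (chromosome 6, 136849433 to 136852821, minus strand). *Vcan*, *Acan*, *Prelp*, *Ogn* and *Tnc* each overlap an annotated gene on the opposite strand, and exons and introns were not told apart in these gene counts.

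RefSeq promoter windows (250 bases before to 50 bases after a start, GRCm38.p6) were found for 7 of the members, with 2 starts for *Tnc*. The window of *Tnc* (chr4:64046887-64047186, minus strand) is shown because *Tnc* was the member with the opposite pattern, of its 2 starts the one with more matches, and those of *Ogn* (chr13:49607765-49608064, plus strand) and *Vcan* (chr13:89742463-89742762, minus strand) because both were fibroblast genes that differed in this motif. Capitals mark the letters of a TATA box (TATAAAA or else TATAAAT, and also TATATAA or else TATATAT, on either strand):
Tnc: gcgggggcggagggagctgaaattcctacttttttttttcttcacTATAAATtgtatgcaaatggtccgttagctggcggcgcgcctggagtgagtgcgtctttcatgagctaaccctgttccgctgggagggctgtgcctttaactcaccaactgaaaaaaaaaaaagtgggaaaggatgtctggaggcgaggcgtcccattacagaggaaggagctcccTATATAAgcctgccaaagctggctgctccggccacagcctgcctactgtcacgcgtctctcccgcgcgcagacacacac
Ogn: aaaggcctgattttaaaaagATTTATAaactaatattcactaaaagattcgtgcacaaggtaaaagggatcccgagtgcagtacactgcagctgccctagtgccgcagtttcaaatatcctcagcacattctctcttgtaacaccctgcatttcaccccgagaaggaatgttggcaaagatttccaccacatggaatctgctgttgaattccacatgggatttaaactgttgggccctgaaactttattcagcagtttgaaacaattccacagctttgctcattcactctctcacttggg
Vcan: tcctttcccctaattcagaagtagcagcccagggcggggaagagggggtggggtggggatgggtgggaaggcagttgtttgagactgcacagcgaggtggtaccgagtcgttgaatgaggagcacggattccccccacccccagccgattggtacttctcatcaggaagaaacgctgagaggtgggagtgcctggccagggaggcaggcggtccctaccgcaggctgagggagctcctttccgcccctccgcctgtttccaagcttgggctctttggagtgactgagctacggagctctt
The *Tnc* window held these letters 205 and 29 bases before the start, the *Ogn* window 230 bases before it on the opposite strand, and the *Vcan* window not at all. The window of the other *Tnc* start (chr4:64046966-64047265, minus strand) held them once, 126 bases before that start. Among 32851 promoter windows of this length, 12.5% held them. The windows of *Prelp*, *Fmod*, *Acan* and *Bgn* did not. The letters were matched at any position of a window, and whether any match acts as a TATA box was not tested.

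The first question was in which cells the members were found. *Tnc* was higher in basal epithelium than in fibroblasts, *Prelp* was higher in satellite cells than in fibroblasts, *Acan* was found in chondrogenic cells, and the remaining members were higher in fibroblasts than in basal epithelium. Of the 9 members tested between fibroblasts and basal epithelium, 8 were higher in fibroblasts and 1 was lower, where 63.6% of 18155 genes tested differed (edgeR quasi-likelihood test, Benjamini-Hochberg adjusted p under 0.05). The median log2 fold change of the members was 7.06, against -0.09 over all genes tested. *Acan* had too few UMIs to be tested.

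**Figure D1:**
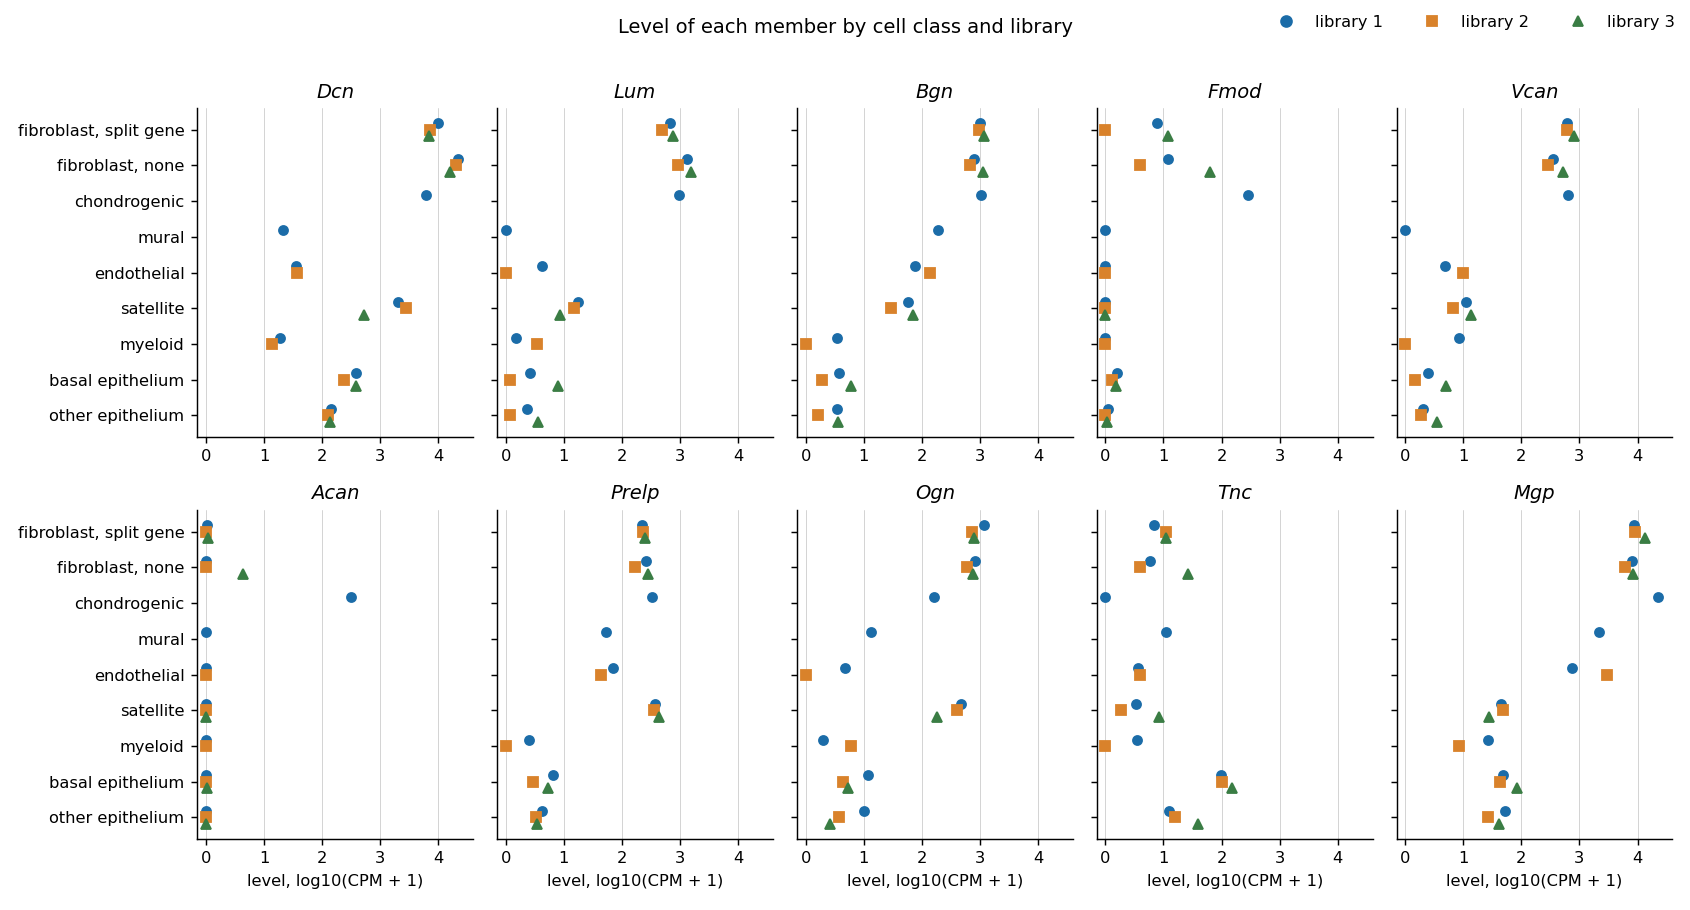
Level of each of the 10 members by cell class, as log10(CPM + 1) of summed UMIs on the x axis, with 1 point per library and the classes on the y axis (split gene, fibroblasts with a UMI of Hhip, Wnt16 or Col23a1; none, fibroblasts without). Dcn, Lum, Bgn, Vcan and Ogn are highest in fibroblasts among classes found in 2 or more libraries, Prelp in satellite cells and Tnc in basal epithelium, and Acan stands above 0 almost only in the chondrogenic cells of library 1.

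*Dcn* reached 12675, 9271 and 8544 CPM in fibroblasts of libraries 1, 2 and 3 and 374, 236 and 376 CPM in basal epithelium. Every fibroblast library lay above every basal library, and the log2 fold change was 4.88 ± 0.29 (SE, adjusted p = 5.28e-06, edgeR quasi-likelihood test). Among the members that were higher in fibroblasts, only *Fmod* had a smaller fold change.

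*Lum* measured 817, 557 and 897 CPM in fibroblasts and 1.66, 0.203 and 6.88 CPM in basal epithelium. *Bgn* measured 952, 937 and 1168 CPM in fibroblasts and 2.82, 0.920 and 5.07 CPM in basal epithelium. Both were low in basal cells in all libraries, and their log2 fold changes were 7.94 ± 1.13 for *Lum* and 8.36 ± 0.64 for *Bgn* (SE, adjusted p = 0.000518 and 1.88e-05, edgeR quasi-likelihood test).

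*Vcan* measured 543, 555 and 747 CPM in fibroblasts against 1.46, 0.447 and 4.11 CPM in basal epithelium, a log2 fold change of 8.16 ± 0.79 (SE, adjusted p = 6.42e-05, edgeR quasi-likelihood test). *Ogn* measured 1089, 717 and 788 CPM in fibroblasts against 10.8, 3.33 and 4.34 CPM in basal epithelium, a log2 fold change of 7.06 ± 0.56. *Mgp*, whose product keeps soft tissue and cartilage from calcifying, measured 8608, 8640 and 12454 CPM in fibroblasts against 46.4, 42.0 and 83.3 CPM in basal epithelium, a log2 fold change of 7.38 ± 0.37. No library of basal cells came near any library of fibroblasts for these 3 genes.

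*Fmod* was sparse, with 172, 2 and 340 UMIs in all fibroblasts (7.82, 0.451 and 19.6 CPM) and 47, 22 and 124 UMIs in basal cells (0.582, 0.298 and 0.536 CPM). The library with the lowest fibroblast level lay within the basal range, and the fitted log2 fold change of 4.32 ± 0.87 (SE) had an adjusted p of 0.00332 (edgeR quasi-likelihood test). Only libraries 1 and 3 lay above the basal range.

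Against endothelial cells, of which 2 libraries gave a sum, 8 of 9 members were higher in fibroblasts, where 39.8% of genes tested differed. *Dcn* measured 34.2 and 36.2 CPM in endothelial cells of libraries 1 and 2. *Mgp* stood out among the members there with 734 and 2941 CPM, above its levels in epithelium, satellite and myeloid cells, and its log2 fold change between fibroblasts and endothelial cells was 2.402 ± 0.57 (SE, adjusted p = 0.0104, and 0.0562 without library 1, edgeR quasi-likelihood test). *Bgn* was also found in endothelial cells, at 76.4 and 139 CPM, with a log2 fold change of 3.29 ± 0.30. No *Fmod* UMI was found in endothelial cells, so no fold is given. Its adjusted p was 0.0804, and 1.22e-06 with the library as a block, a fit that leaves 1 residual degree of freedom (edgeR quasi-likelihood test). *Tnc* rested on 12 and 1 UMIs in endothelial cells, and its adjusted p of 0.0455 rose to 0.157 with the block (edgeR quasi-likelihood test). Leaving out any library also ended that call, with adjusted p from 0.0708 to 0.27. Without doublet removal, when library 3 also gave an endothelial sum, its log2 fold change was -0.14 (adjusted p = 0.934, edgeR quasi-likelihood test).

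Satellite cells shared several members with fibroblasts. Of 8 members tested, 6 were higher in fibroblasts and 1 was lower, where 49% of genes tested differed. *Prelp*, which binds collagen and basement membrane perlecan, measured 377, 361 and 435 CPM in satellite cells and 226, 216 and 254 CPM in fibroblasts. It was higher in satellite cells in every library without overlap, by a log2 fold change of -0.72 ± 0.11 for fibroblasts minus satellite cells (SE, adjusted p = 0.00123, and 0.0571 in a single fit over all groups, edgeR quasi-likelihood test). With each cell thinned to 5000 UMIs, 77.3%, 76.5% and 78.7% of satellite cells had a *Prelp* UMI, against 56.9%, 56.0% and 61.4% of fibroblasts. Without thinning these shares were 80.8%, 86.0% and 80.3% in satellite cells and 70.6%, 75.2% and 72.8% in fibroblasts. *Ogn* measured 463, 404 and 184 CPM in satellite cells, lower than in each fibroblast library (log2 fold change 1.31 ± 0.37, SE, adjusted p = 0.0199, and 0.081 without library 1 or 0.0665 in a single fit over all groups, edgeR quasi-likelihood test). *Dcn* measured 2022, 2757 and 526 CPM in satellite cells, so library 3 stood apart, and the log2 fold change was 2.51 ± 0.59 (SE, adjusted p = 0.00901, and 0.0893 without library 1, edgeR quasi-likelihood test). The 5 fibroblast check markers summed to between 212 and 520 CPM in satellite cells. *Dpt*, *Col5a1* and *Col6a1* made up that sum, while *Twist2* (0.895, 0.168 and 0.286 CPM) and *Mfap5* (3.04, 0.337 and 2.72 CPM) were near 0. *Lum*, *Vcan*, *Bgn* and *Mgp* were far lower in satellite cells, with log2 fold changes of 5.90, 6.06, 4.36 and 7.98. *Mgp* measured 44.2, 47.3 and 26.5 CPM there. *Tnc*, at 2.33, 0.842 and 7.30 CPM there, had an adjusted p of 0.0875, and of 0.0195 with the block or 0.0149 without library 3 (edgeR quasi-likelihood test). *Fmod* had 0 UMIs in satellite cells of all libraries and was tested only with the block (adjusted p = 0.000615, edgeR quasi-likelihood test).

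*Acan* was found in the 29 chondrogenic cells of library 1 at 309 CPM (100 UMIs, in 65.5% of cells, 95% Wilson interval 47.3% to 80.1%). In all fibroblasts it had 1, 0 and 11 UMIs. *Fmod* reached 281 CPM and *Mgp* 22206 CPM in the same chondrogenic cells, and both exceeded every fibroblast library. *Dcn* was lower there than in each fibroblast library at 6220 CPM, as was *Ogn* at 164 CPM. *Lum* (957 CPM), *Bgn* (1049 CPM) and *Vcan* (626 CPM) lay above the fibroblasts of the same library (817, 952 and 543 CPM), though *Bgn* and *Vcan* lay within the range over all libraries and *Lum* below the 1292 CPM of library 1 fibroblasts without a UMI of *Hhip*, *Wnt16* or *Col23a1*. For *Vcan* the share of cells went the other way, with a UMI in 31.0% of the 29 chondrogenic cells (95% Wilson interval 17.3% to 49.2%) against 73.5% of library 1 fibroblasts. *Tnc* had 0 UMIs. These cells came from a single library, 8 of the 29 also passed the fibroblast gate, and the differences were not tested. In the 64 mural cells of library 1, *Mgp* reached 2158 CPM and *Bgn* 190 CPM, while *Lum*, *Vcan*, *Fmod* and *Acan* had 0 UMIs.

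The second question was how the members differ between fibroblasts with at least 1 UMI of *Hhip*, *Wnt16* or *Col23a1* (1452, 303 and 1433 cells) and fibroblasts with none (452, 56 and 307 cells). *Hhip* encodes a hedgehog-binding inhibitor, *Wnt16* a Wnt ligand and *Col23a1* a transmembrane collagen. *Dcn*, and by value *Lum*, were lower where a split gene was found, and *Vcan* was higher by value in the same cells. Of 9 members tested 1 was called, *Dcn*, where 3.84% of 12974 genes were (edgeR quasi-likelihood test). DESeq2 called *Dcn*, *Lum* and *Vcan* (adjusted p = 9.43e-08, 0.000654 and 0.0217), where it called 717 of 12974 genes. The paired sums share a pool of larynges, and with the library as a replicate block 5 of 9 members were called, where 9.61% of genes were. The median log2 fold change of the members was -0.10, against -0.01 over all genes tested.

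**Figure D2:**
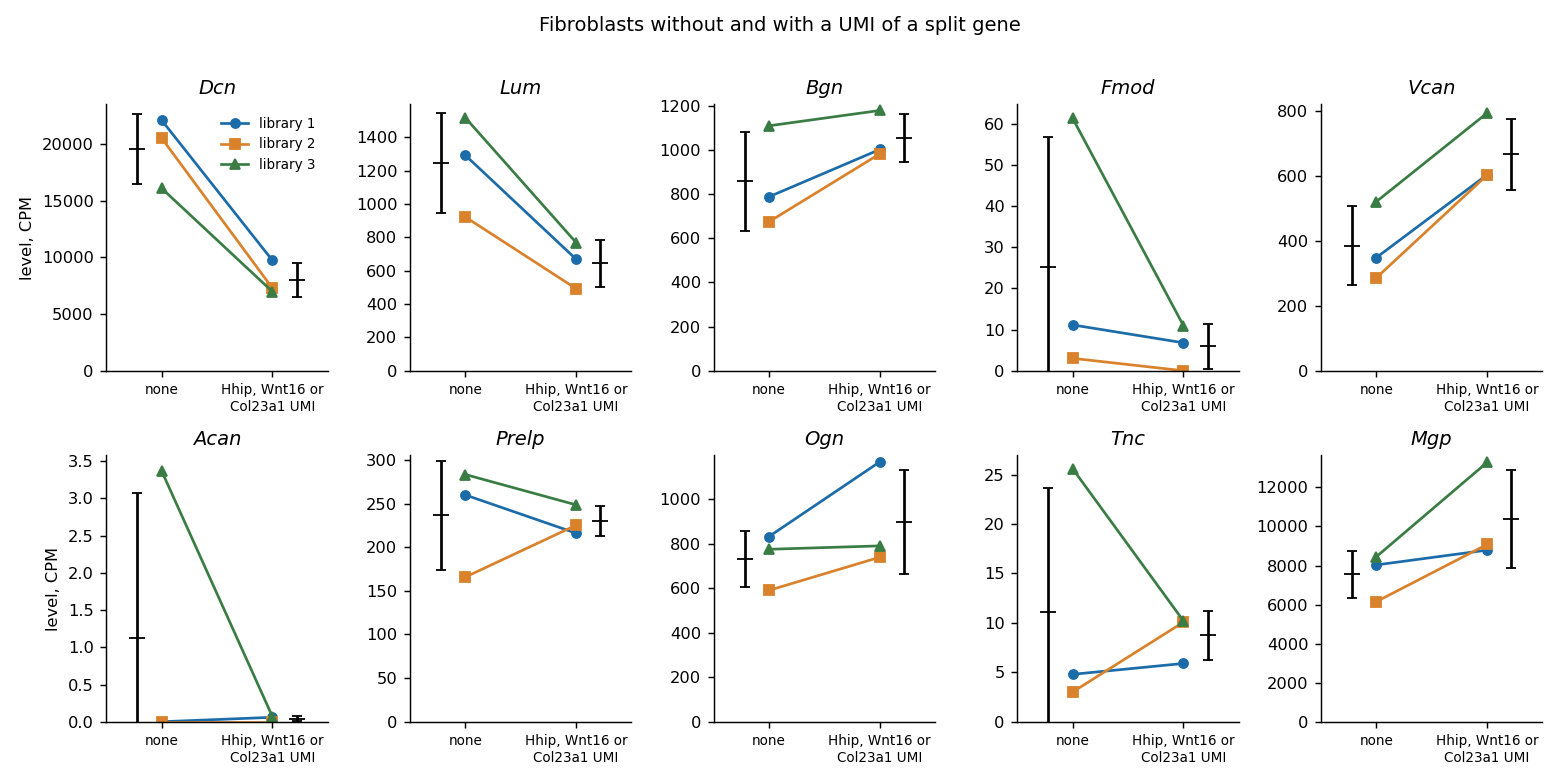
Level in CPM (y axis, from 0) of each member in fibroblasts without and with a UMI of Hhip, Wnt16 or Col23a1, with 1 line per library and, beside the points, the mean ± SD over 3 libraries (bars end at 0 where the SD exceeds the mean). Dcn and Lum fall and Vcan rises in each library, and the 2 groups do not overlap for these 3 members or for Mgp.

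*Dcn* measured 9743, 7288 and 6984 CPM with a split gene and 22121, 20540 and 16108 CPM without one. The lowest level without a split gene was above the highest level with one. The log2 fold change was -1.34 ± 0.26 (SE, adjusted p = 0.0299, edgeR quasi-likelihood test), and -1.33 with the block (adjusted p = 3.42e-05). A single fit over all groups also lost the call (adjusted p = 0.141, edgeR quasi-likelihood test). Leaving out library 1 or 2 kept the direction but not the call (adjusted p = 0.302 and 0.425, edgeR quasi-likelihood test).

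*Lum* measured 669, 492 and 769 CPM with a split gene and 1292, 922 and 1517 CPM without. These groups did not overlap either, and within a library the level with a split gene was 0.518, 0.534 and 0.507 times that without. The log2 fold change of -0.99 ± 0.23 (SE) had an adjusted p of 0.0564, and of 6.97e-05 with the block and 0.0431 without library 3 (edgeR quasi-likelihood test).

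*Vcan* measured 604, 603 and 794 CPM with a split gene and 348, 286 and 521 CPM without. All libraries with a split gene lay above all libraries without. The log2 fold change of 0.75 ± 0.22 (SE) had an adjusted p of 0.128, and of 0.00109 with the block and 0.0153 without library 3 (edgeR quasi-likelihood test).

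*Mgp* measured 8788, 9078 and 13280 CPM with a split gene and 8029, 6148 and 8448 CPM without, a log2 fold change of 0.42 ± 0.24 (SE, adjusted p = 0.567, and 0.0454 with the block, edgeR quasi-likelihood test). *Fmod* measured 6.79, 0 and 10.97 CPM with a split gene and 11.1, 3.01 and 61.3 CPM without. It was lower with a split gene in each library, and the gap in CPM was widest in library 3. The log2 fold change was -2.08 ± 0.91 (SE, adjusted p = 0.372, and 0.0193 with the block, edgeR quasi-likelihood test). It ran from -2.55 to -1.11 when a library was left out. The groups overlapped for *Fmod*.

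*Bgn* (log2 fold change 0.26 ± 0.19), *Ogn* (0.25 ± 0.23), *Prelp* (-0.10 ± 0.18) and *Tnc* (-0.55 ± 0.60) did not pass with or without the block, with adjusted p from 0.716 to 0.951 without it (edgeR quasi-likelihood test). Their groups overlapped. *Acan* had 2 UMIs with a split gene and 10 without.

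The same differences appeared as shares of cells. With each cell thinned to 5000 UMIs, which left out 269, 20 and 241 fibroblasts, and the groups made anew on the thinned counts, a *Dcn* UMI was found in 76.1%, 66.9% and 72.1% of fibroblasts with a split gene (95% Wilson intervals 73.6% to 78.5%, 61.0% to 72.4% and 69.4% to 74.6%). Without a split gene the shares were 98.0%, 100% and 95.5%. Almost every fibroblast without a split gene thus had a *Dcn* UMI, which was not so with one. These intervals cover counting error only. A *Dcn* UMI was found in 3.36% and 8.33% of myeloid cells, which should lack the gene, in libraries 1 and 2 at the same depth. These shares rest on 4 of 119 and 2 of 24 cells. In all myeloid cells without thinning they were 21.0% (30 of 143 cells) and 11.4% (5 of 44 cells). The myeloid cells kept for thinning had a median of 15135 and 11629 UMIs before it. The fibroblasts with a split gene had 12085.5 and 11657. *Lum* was found in 47.3%, 36.5% and 44.02% of fibroblasts with a split gene and in 81.9%, 64.6% and 85.2% without. *Vcan* was found in 71.1%, 60.4% and 80.1% with a split gene and in 53.1%, 44.3% and 60.4% without. *Bgn* was found in most fibroblasts of both groups, from 93.1% to 96.3% with a split gene and from 81.0% to 91.0% without. Without thinning, the *Dcn* shares were 81.1%, 72.3% and 75.9% with and 98.7%, 100% and 96.1% without a split gene. The unthinned *Lum* shares were 52.6%, 44.9% and 49.1% with and 88.5%, 75% and 85.7% without, those of *Vcan* 77.5%, 74.6% and 84.8% with and 60.4%, 57.1% and 66.1% without. The order was the same in each library. The median UMI count per cell before thinning was alike in both groups of all fibroblasts, 11508 and 11338 in library 1, 11460 and 11671.5 in library 2, and 9557 and 8926 in library 3.

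Gate genes of other cell types were read in the same sums. The summed epithelial gate genes ran from 16.7 to 49.9 CPM with a split gene and from 18.1 to 64.0 CPM without. Mural gate genes ran from 121 to 128 CPM with and from 46.7 to 71.7 CPM without, and 4 of the 6 were higher with a split gene in all 3 libraries, with *Higd1b* at 0 in both groups. The 8 chondrogenic gate genes ran from 8.26 to 12.7 CPM with and from 0 to 6.06 CPM without. Marker genes that no gate used gave a different picture for cartilage. The 4 chondrogenic check markers (*Sox9*, *Cytl1*, *Hapln1* and *Col11a1*) ran from 91.7 to 106 CPM with and from 87.4 to 273 CPM without a split gene, and *Col11a1* in library 3 measured 12.3 CPM with and 128 CPM without. The 3 mural check markers (*Acta2*, *Tagln* and *Pdgfrb*) ran from 170 to 218 CPM with and from 134 to 149 CPM without. The 3 satellite check markers (*Msc*, *Heyl* and *Fgfr4*) ran from 32.2 to 49.7 CPM with and from 12.1 to 19.9 CPM without a split gene, without overlap. *Heyl* made most of that gap, at 18.05, 21.2 and 38.1 CPM with and 6.33, 0 and 9.43 CPM without. It also reached 103 CPM in mural cells of library 1. *Msc* overlapped between the groups, and *Fgfr4* was higher with a split gene but at most 3.06 CPM. The 7 satellite gate genes overlapped, from 35.003 to 63.1 CPM with and from 21.1 to 133 CPM without. The 3 glial check markers (*S100b*, *Ngfr* and *Gfra3*) ran from 7.16 to 16.8 CPM with and from 12.1 to 33.3 CPM without. *S100b*, which also reached 145 CPM in chondrogenic cells of library 1, was higher without in each library. *Ngfr* was higher with a split gene in libraries 1 and 2 (2.56 and 2.92 against 1.15 and 0 CPM), and *Gfra3* was at most 0.556 CPM. The 6 glial gate genes ran from 29.8 to 91.2 CPM with and from 15.2 to 72.3 CPM without. The check markers of basal epithelium, endothelium and myeloid cells overlapped between the groups. The part of these cells in the members' differences was not tested.

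Fibroblast subsets set by a single marker gene were described without a test. They overlap in cells, since most fibroblasts with a *Hhip* or *Wnt16* UMI also had one of *Col23a1*. *Dcn* was lowest in fibroblasts with a *Wnt16* UMI (4459, 4177 and 2509 CPM), next in those with a *Hhip* UMI (6680, 6120 and 4706 CPM), and higher in those with *Hhip* alone (15346, 15079 and 13272 CPM) or *Col23a1* alone (17726, 11000 and 12193 CPM). Each library held this order from *Wnt16* to *Hhip* to *Col23a1* to the subsets with a single split gene. *Vcan* ran the other way between its ends, with 723, 775 and 993 CPM with *Wnt16* against 568, 414 and 702 CPM with *Hhip* alone and 457, 643 and 609 CPM with *Col23a1* alone.

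*Ogn* measured 1745, 1145 and 1129 CPM with a *Wnt16* UMI, above the 740, 477 and 660 CPM with *Hhip* alone and the 683, 458 and 449 CPM with *Col23a1* alone in each library. *Lum* differed between the last 2 subsets, at 721, 390 and 881 CPM with *Hhip* alone and 1378, 896 and 1379 CPM with *Col23a1* alone. In fibroblasts with a UMI of the tendon genes *Scx*, *Tnmd* or *Mkx* (145, 21 and 128 cells), *Fmod* measured 53.4, 6.72 and 132 CPM and *Tnc* 31.3, 70.6 and 82.7 CPM. These were the highest levels of *Tnc* among the fibroblast subsets in each library and of *Fmod* in libraries 1 and 3, while in library 2 only 1 fibroblast had a *Fmod* UMI. *Prelp* was also highest there, at 317, 356 and 325 CPM. In fibroblasts with a UMI of the adventitial genes *Pi16* or *Dpp4*, *Mgp* measured 10600, 11275 and 18411 CPM, above the level over all fibroblasts in each library, and *Tnc* only 2.97, 1.45 and 1.94 CPM.

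**Figure D3:**
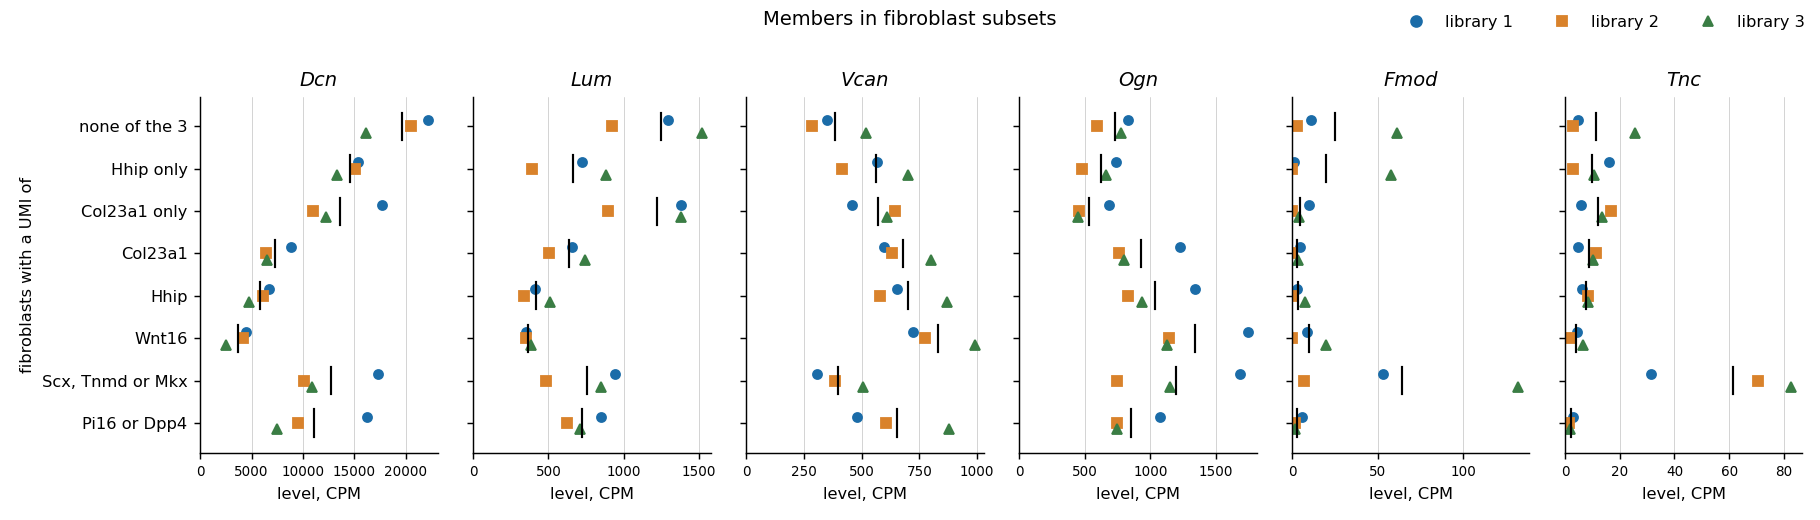
Level in CPM (x axis) of 6 members in fibroblast subsets named by the genes they had a UMI of (y axis), with 1 point per library and a black bar at the mean over 3 libraries. Dcn falls from fibroblasts with none of the split genes to those with Wnt16, Vcan is highest with Wnt16, and Tnc, and in libraries 1 and 3 Fmod, with the tendon genes Scx, Tnmd or Mkx.

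Other genes of the same families were read in the split from lists drawn up by role. Over all genes tested, 1.57% were lower and 2.27% higher with a split gene, and 4.58% and 5.03% with the block. Of 8 other small leucine-rich proteins tested, 2 were lower with a split gene and none was higher (median log2 fold change -0.93). *Aspn*, whose product asporin binds collagen, measured 137, 129 and 139 CPM with a split gene and 533, 274 and 636 CPM without (log2 fold change -1.88 ± 0.27, SE, adjusted p = 0.00986, edgeR quasi-likelihood test). *Omd* measured 75.4, 72.1 and 58.9 CPM with and 160.2, 124 and 161 CPM without (log2 fold change -1.16 ± 0.15, adjusted p = 0.00788, edgeR quasi-likelihood test). Both groups of libraries stood apart for both genes, and *Omd* thus differed where its neighbour *Ogn* did not pass.

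Of 11 other matricellular proteins tested, 4 were lower with a split gene and 1 was higher (median -1.11). *Comp*, found in tendon and cartilage, measured 7.98, 4.77 and 3.19 CPM with a split gene and 43.4, 64.8 and 51.5 CPM without (log2 fold change -3.26 ± 0.34, SE, adjusted p = 0.00289, edgeR quasi-likelihood test). *Thbs4* fell by 2.10 and *Tnxb*, a tenascin of loose connective tissue, fell by 1.32 on the log2 scale, and *Thbs3* also passed. *Sparcl1*, whose product is a relative of osteonectin, measured 963, 639 and 879 CPM with and 288, 220 and 430 CPM without (log2 fold change 1.36 ± 0.25, adjusted p = 0.0259, edgeR quasi-likelihood test).

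None of 17 other proteoglycans and link proteins passed, with a median of 0.06, and with the block 1 was higher and 2 were lower. Of 22 enzymes of glycosaminoglycan chains, *Chst1* was lower and none was higher (median 0.01). Of 12 proteases of proteoglycans and their inhibitors, *Adamts9*, a protease that cuts versican and aggrecan, was higher, at 82.7, 73.2 and 76.9 CPM with and 19.0, 27.1 and 40.4 CPM without a split gene (log2 fold change 1.42 ± 0.24, SE, adjusted p = 0.0171, edgeR quasi-likelihood test). With the block the counts over these lists rose to 5 lower small leucine-rich proteins, 6 lower and 1 higher matricellular protein, 2 lower and 1 higher chain enzyme, and 2 lower and 4 higher proteases or inhibitors.

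The third question was whether the members differ between *Lrig1*+ fibroblasts (522, 126 and 606 cells with an *Lrig1* UMI) and *Lrig1*- fibroblasts (1382, 233 and 1134 cells). None of 9 members passed, where 0% of 13859 genes did. At an unadjusted p under 0.05 there were 207 genes by edgeR, and DESeq2 called 3 genes, none of them a member. With the block 12 genes (0.0836%) and 0 members passed. *Tnc* had the largest difference among the members, at 2.28, 1.195 and 8.22 CPM in *Lrig1*+ and 7.20, 13.8 and 15.99 CPM in *Lrig1*- fibroblasts. *Lrig1*+ fibroblasts were deeper, with a median of 13212.5, 12873.5 and 11251 UMIs against 10815, 11094 and 8389. *Tnc* was lower in *Lrig1*+ cells in each library, though the groups overlapped, with a log2 fold change of -1.43 ± 0.54 (SE, adjusted p = 1, and 0.164 with the block, edgeR quasi-likelihood test). With cells thinned to 5000 UMIs it was -0.49 (adjusted p = 1, edgeR quasi-likelihood test). *Vcan* was higher in *Lrig1*+ cells in each library, at 606, 591 and 837 CPM against 514, 534 and 686 CPM, by a log2 fold change of 0.22 ± 0.17 (SE). The other members differed by at most 0.93 on the log2 scale, with standard errors from 0.11 for *Prelp* to 0.92 for *Fmod*. The *Lrig1* difference was also compared between fibroblasts with and without a split gene. None of 12517 genes passed (0%), 251 had an unadjusted p under 0.05 by edgeR, and DESeq2 called 1. Library 2 held too few cells for 1 of these sums.

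The fourth question was how the *Dcn* level in epithelium compares with free RNA, the RNA of lysed cells that enters droplets with other cells. If free RNA held fibroblast genes in the ratio found in fibroblasts, *Dcn* would follow other fibroblast genes, so its level was set beside the summed UMIs of *Col1a1*, *Col1a2* and *Col3a1*. These collagens are 3 of the 6 fibroblast gate genes, and cells that passed the gates of more than 1 lineage (133, 43 and 400) were set aside, so the gates bear on the ratio in both classes, by an amount that was not tested. In fibroblasts there were 4.31, 2.61 and 1.01 *Dcn* UMIs per collagen UMI in libraries 1, 2 and 3. In basal epithelium there were 84.9, 223 and 8.02. The *Dcn* level in basal epithelium was 19.7, 85.6 and 7.90 times the level that its collagen UMIs and the fibroblast ratio give. Barcodes too shallow to be kept were read beside these classes. They numbered 2115, 1235 and 1701 in libraries 1, 2 and 3 and held 1548197, 1285240 and 1263504 UMIs. Whether they were droplets with free RNA only or damaged cells, fibroblasts among them, was not tested. Their quotients therefore cannot serve as a standard for free RNA. The *Dcn* level of these barcodes was 541, 152 and 404 CPM, above the basal level in libraries 1 and 3 and below it in library 2. Their collagen level was 139.5, 28.8 and 418 CPM against 4.41, 1.06 and 46.9 CPM in basal epithelium. Their *Dcn* quotient was 0.8996, 2.02 and 0.952. In endothelial cells of library 1 it was 1.01 on 35 collagen UMIs, and those of library 2 had 0 collagen UMIs. In myeloid cells it was 0.812 on 10 collagen UMIs in library 1 and 1.92 on 1 in library 2. The shallow barcodes did not hold all members in the fibroblast ratio. Their quotients were 0.933, 0.691 and 0.533 for *Lum*, 0.925, 1.61 and 0.560 for *Mgp* and 0.977, 4.15 and 0.854 for *Vcan*. In library 2 they rest on 37 collagen UMIs, and their spread limits what a quotient near 1 can show. Other epithelium had *Dcn* quotients of 5.71, 36.2 and 6.46, and satellite cells of 2.39, 8.35 and 0.981. In satellite cells *Bgn* had quotients of 0.883, 0.843 and 0.947. There *Mgp* had 0.0771, 0.154 and 0.0339, *Lum* 0.306, 0.705 and 0.137, and *Vcan* 0.282, 0.281 and 0.265. *Ogn* had 6.38, 15.8 and 3.73 and *Prelp* 25.0, 46.9 and 27.2. Satellite cells thus did not hold all members in the fibroblast ratio in any library, and the source of their *Dcn* UMIs was not tested.

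*Lum*, the neighbour of *Dcn*, had quotients of 1.35, 1.23 and 1.38 in basal epithelium, close to the fibroblast ratio in all libraries. *Bgn* had 1.98, 3.31 and 0.780, *Vcan* 1.79, 2.71 and 0.987, *Mgp* 3.59, 16.4 and 1.199, *Ogn* 6.63, 15.6 and 0.987, and *Prelp* 16.3, 29.9 and 3.10. *Fmod* had 49.6, 2224 and 4.91 on 47, 22 and 124 basal UMIs, above *Dcn* in libraries 1 and 2, with 2 fibroblast UMIs behind the ratio of library 2. The quotient of *Tnc* was 11553, 37822.5 and 2099.8, and its level was higher in basal epithelium (97.7, 101 and 150 CPM) than in fibroblasts.

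**Figure D4:**
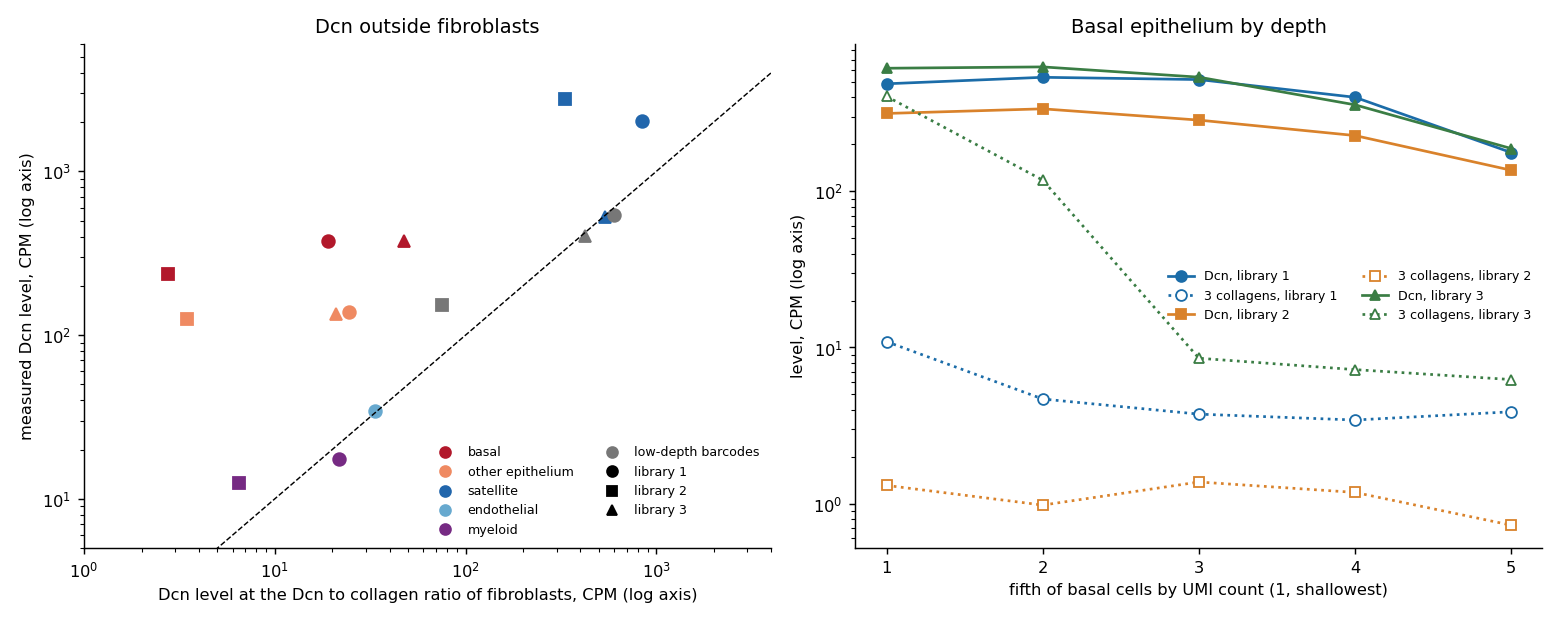
Left, measured Dcn level against the Dcn level that the collagen UMIs of a class give at the ratio of fibroblasts, both in CPM on log axes, 1 point per class and library, with a dashed line of equality; basal and other epithelium lie above the line in each library, and low-depth barcodes lie on it in libraries 1 and 3. Right, level in CPM on a log axis of Dcn (solid) and of the 3 collagens summed (dotted) in basal cells in 5 bins of equal cell number by UMI count, in which Dcn is alike in the 3 shallowest bins while the collagens of library 3 fall.

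A part of the basal cells held *Dcn* UMIs. At 5000 UMIs per cell, 49.2%, 36.3% and 57.0% of basal cells had a *Dcn* UMI, against 9.94% and 13.04% of endothelial cells and 3.36% and 8.33% of myeloid cells in libraries 1 and 2. Without thinning the basal shares were 65.4%, 52.3% and 68.8%, at a median of 15831, 19344 and 13236.5 UMIs. Those of endothelial cells were 16.6% and 9.68% at a median of 7459 and 6555 UMIs. Those of myeloid cells were 21.0% and 11.4% at a median of 12348 and 6168 UMIs. At the thinned depth 7.07%, 3.90% and 6.87% of basal cells had 8 or more *Dcn* UMIs and held 44.1%, 36.2% and 35.5% of the *Dcn* UMIs of that class. In fibroblasts 72.1%, 62.5% and 63.5% of cells had 8 or more, and they held 99.1% to 99.5% of the *Dcn* UMIs.

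Basal cells without any collagen UMI, 4570, 3679 and 11906 cells, were taken after these values were seen. Their *Dcn* level was 374, 235 and 365 CPM, nearly that of all basal cells, while in library 3 *Lum* was at 1.47 CPM against 6.88 CPM in all basal cells and *Mgp* at 32.2 CPM against 83.3 CPM. In libraries 1 and 2 *Lum* (1.63 and 0.207 CPM) and *Mgp* (45.7 and 41.2 CPM) also stood near their levels in all basal cells, so this contrast was seen in library 3 alone. By depth, the collagens of library 3 measured 406 and 118 CPM in the 2 shallowest of 5 bins of basal cells by UMI count and 8.53, 7.21 and 6.23 CPM in the others. *Lum* followed with 58.6, 17.9, 1.30, 1.09 and 0.858 CPM. *Dcn* took another course in that library, at 616, 628, 540, 359 and 188 CPM. In libraries 1 and 2 the collagens were low in all bins, at most 10.9 and 1.37 CPM, and *Lum* was at most 2.05 and 0.356 CPM. *Dcn* ran from 489 CPM in the shallowest to 177 CPM in the deepest bin of library 1 and from 316 to 137 CPM in library 2, so it was lowest in the deepest basal cells of each library. *Tnc* stayed between 134 and 165 CPM in the bins of library 3.

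*Tnc* was the member of the basal epithelium. It measured 97.7, 101 and 150 CPM in basal cells, 11.7, 14.8 and 38.4 CPM in other epithelium and 5.64, 9.02 and 12.8 CPM in fibroblasts. Basal cells stood above all other classes in each library, and the log2 fold change of fibroblasts against basal epithelium was -3.73 ± 0.31 (SE, adjusted p = 2.88e-05, edgeR quasi-likelihood test). At 5000 UMIs per cell, 19.5%, 22.1% and 31.4% of basal cells had a *Tnc* UMI and 1.65%, 0.590% and 3.94% of fibroblasts did. Without thinning the shares were 28.0%, 34.7% and 41.2% of basal cells and 2.84%, 2.23% and 5.46% of fibroblasts.

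Basal cells were also divided by *Nkx2-1*, a transcription factor of the respiratory and thyroid endoderm, a choice made after values were seen and therefore described without a test. *Dcn* measured 592, 398 and 575 CPM in basal cells with an *Nkx2-1* UMI (2247, 1492 and 7699 cells) and 182, 121 and 199 CPM in those without. *Tnc* ran the other way, with 61.9, 71.5 and 84.3 CPM with *Nkx2-1* and 129, 122 and 209 CPM without. Both members separated the 2 kinds of basal cell in each library, and in opposite directions. With cells thinned to 5000 UMIs and divided anew, *Dcn* measured 663, 452 and 688 CPM with and 329, 212 and 352 CPM without *Nkx2-1*, a smaller ratio in each library than without thinning. *Tnc* measured 52.8, 67.02 and 81.4 CPM with and 117, 116 and 177 CPM without at that depth. *Mgp* measured 46.7, 29.3 and 78.1 CPM with and 46.0, 51.0 and 87.9 CPM without, and overlapped. The 5 fibroblast check markers summed to between 0.754 and 17.1 CPM with and between 1.01 and 17.8 CPM without *Nkx2-1*.

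**Figure D5:**
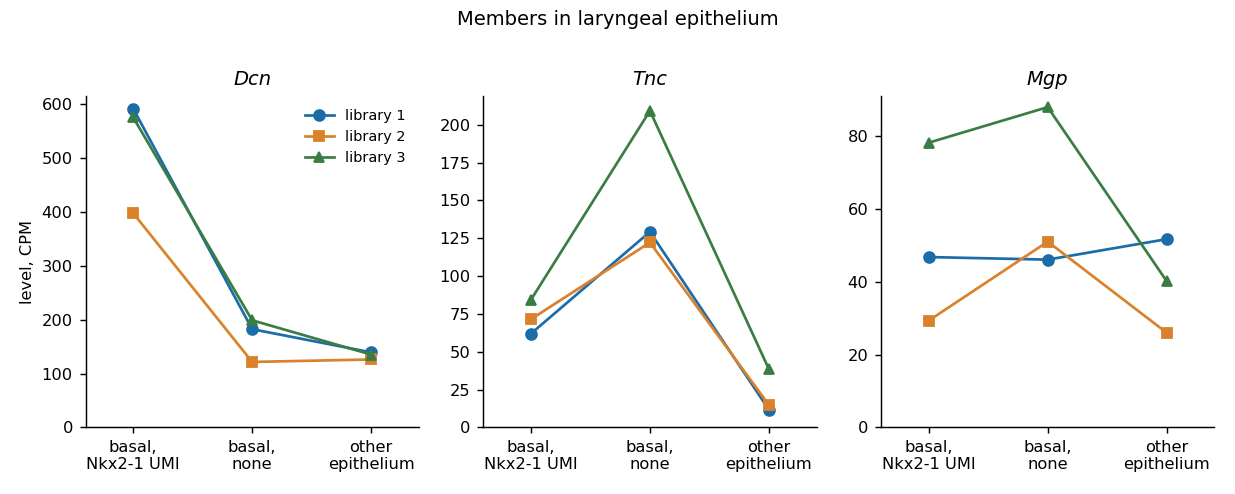
Level in CPM (y axis, from 0) of Dcn, Tnc and Mgp in basal cells with an Nkx2-1 UMI, basal cells without and other epithelium, with 1 line per library. Dcn is highest with Nkx2-1 and Tnc without it in all 3 libraries, and Mgp keeps no such order.

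The genes most like each member were found by Pearson correlation of log2(CPM + 1) over 21 sums of class and library, among 13815 genes. These sums share libraries, so r is a description only. *Dcn* was most like *Scara5* (r = 0.95), *Cbs* and *Dio2*, and *Lum* most like *Tspan11* (0.98), *Lgi4* and *Serpinf1*. *Bgn* was most like *Prickle1* (0.98), *Snai1* and *Calu*, and *Vcan* like *Tspan11* (0.97), *Serpinf1* and *Glis1*, so *Lum* and *Vcan* shared 2 of their 3 nearest genes. *Ogn* was most like *Il11ra1* (0.97), *Dpt* and *Gm12394*, *Prelp* like *Mxra7* (0.98), *Zbtb20* and *Pde10a*, and *Mgp* like *Foxf1* (0.97), *Crispld1* and *Fendrr*. *Fmod* was most like *Col11a1* (0.96), *Pou3f3* and *Gm10635*, and *Acan* like *Ucma* (0.99), *Nuggc* and *Ibsp*, which rest mostly on the single chondrogenic sum. *Tnc* was most like *Papss1* (0.92), *Hadha* and *Phkb*.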

How the data were processed

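Single-cell libraries (10x GEM-X 3′ v4) were deposited as UMI counts per gene and barcode. The authors aligned the reads to mm39 and counted them with Cell Ranger 8.0.1, per the labels. Barcodes with 500 to 8000 genes, 1000 to 40000 UMIs and at most 8% mitochondrial counts were kept, and simulated doublets on 30 principal components marked 0.4% of barcodes per 1000 barcodes for removal, which took out 4851. Of 60530 barcodes 44542 cells remained. Total deposited counts were 211727921, 147898790 and 413632222 UMIs.

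Cells were gated by marker UMIs and summed per library, with at least 20 cells. Sums were tested with edgeR 4.0.16 (TMM, filterByExpr, quasi-likelihood test, Benjamini-Hochberg adjustment, threshold 0.05) in R 4.3.3, after a test on simulated data, and with DESeq2 1.42.0 as an alternative. Python 3.11.15 with scikit-learn 1.9.0 and scipy 1.17.1 did the rest. A standard error (SE) is the absolute log2 fold change over the root of the quasi-likelihood F. Shares have 95% Wilson intervals, and 1 CPM was added before logarithms. The sums compared come from the same pools, so library numbers pair them: the correlation of their deviations from the group means was 0.204 to 0.694 in each library of 4 comparisons. The main fits had no block, and fits with the library as a block were an alternative.

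Named genes were all members, up to 4 genes a list past the threshold with the largest change, a mean of at least 10 CPM and 1 direction in all libraries, and the 3 genes most like each member. Members, lists and gates were chosen with earlier results of these data known.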

Additional observations from a re-analysis of the deposited data

How the results depend on the processing

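Of 529 member fold changes under alternatives, 482 kept their direction and side of the threshold, 22 passed it newly, 14 no longer did and 11 changed sign. All 90 levels moved by less than the spread between libraries. With the library as a replicate block, the genes called by the edgeR quasi-likelihood test rose from 498 to 1289 in the *Hhip*, *Wnt16* or *Col23a1* split and from 0 to 12 in the *Lrig1* split. The block changed no call of a member beyond those given above.

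The split gave 891 genes with no filter on low counts, and 17 to 668 when a library was left out (17 without library 1, 97 without library 2). Against endothelial cells 5464 genes became 2131 to 5317 (2131 without library 1), against satellite cells 6806 became 3802 to 6250 (3802 without library 1), and the *Lrig1* split gave 0 to 1. With the quality limits as literally worded in the study's supplement, which set the gene limits on UMIs and the UMI limits on genes, 11550 genes against basal epithelium became 5272 and 6806 against satellite cells became 4145. DESeq2 called 3 genes in the *Lrig1* split and 1 in its comparison between fibroblasts with and without a split gene, where the test without a filter also called 1. The cause was not tested.

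Signs changed only for members that had not passed, apart from *Tnc* against endothelial cells, which was -0.14 without doublet removal. In the split, *Bgn* was -0.0197 under the literal limits, *Prelp* 0.0382 without library 1 (-0.24 to 0.0382 over left-out libraries) and *Tnc* 0.70 without library 3 (-0.84 to 0.70). In the *Lrig1* split, *Dcn* was 0.0760 under the literal limits and -0.12 to 0.0865 over left-out libraries, *Bgn* 0.0373 with at least 2 UMIs required and -0.0427 to 0.0176, *Fmod* -1.76 to 0.58 and *Mgp* -0.23 to 0.0155. Comparisons with chondrogenic and mural cells were not run, as 1 library held enough cells (without doublet removal 2 did for mural cells, 70 and 32, and this was not run either), and the literal limits left too few cells for the endothelial comparison and for the *Lrig1* difference between fibroblast groups. *Fmod*, *Acan* and *Tnc* rest on few UMIs in fibroblasts, which limits their values there.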

Other observations

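Members were also read together within fibroblasts thinned to 5000 UMIs (1635, 339 and 1499 cells), as a description without a test, since cells of a library are not replicates. *Lum* was found in 68.0%, 54.5% and 66.4% of fibroblasts with a *Dcn* UMI and in 8.93%, 9.30% and 12.1% of those without. *Vcan* ran the other way, in 61.9%, 53.4% and 72.0% of fibroblasts with *Dcn* and 83.2%, 66.3% and 86.1% of those without. *Bgn* was found in most of both, with 91.1%, 89.3% and 94.2% against 97.1%, 93.0% and 97.9%. All 13, 1 and 34 fibroblasts with a *Fmod* UMI also had a *Dcn* UMI. *Vcan* was found in 23.1%, 0% and 11.8% of them against 65.9%, 56.8% and 76.6% of the rest, and *Prelp* in 76.9%, 100% and 94.1% against 56.8%, 55.9% and 60.6%. No fibroblast had a UMI of all 10 members and none lacked them all.

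*Art4*, a gene 14.61 kb from *Mgp*, was higher in fibroblasts with a split gene by a log2 fold change of 3.71 (adjusted p = 0.00105, edgeR quasi-likelihood test), where *Mgp* itself had 0.42. It was named after its value was seen.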
